A study of Mus musculus with 12 samples.

Results

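Confluent monolayers of mouse colonic epithelium were compared between the time points labelled day 5 and day 3, in 6 of the 12 RNA sequencing libraries of a study that set such monolayers beside colonic crypts. The members are the 3 libraries labelled as confluent monolayers at day 5 and the 3 labelled day 3, chosen by their titles alone. Per the labels, crypts came from a wild-type mouse aged 6 to 10 weeks, their cells grew first as monolayers on collagen, and the cells were then plated on scaffolds whose cross-linking is graded, where the labels report closed sheets within days. Both groups therefore share this protocol, and differ in the time at which the whole sheet was lysed. Whether they also differ in mouse, plating or batch is not known here, and such differences could not be told apart from day. The labels give a transepithelial resistance, the electrical tightness of the sheet, of 407 ± 53 ohm cm2 at day 5 and 526 ± 56 ohm cm2 at day 3, and do not say which error that is. No treatment is named for either day, and the sources used here do not say whether the 3 libraries of a day came from separate mice or separate sheets, so that p-values reflect the spread of these libraries alone, possibly a technical one.

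The colonic epithelium renews itself from stem cells at the crypt base. Daughter cells divide a few times, leave the cell cycle as they move up, and become absorptive colonocytes with a brush border and salt transporters, or secretory goblet, enteroendocrine and tuft cells. Wnt and epidermal growth factor signals keep cells dividing, while bone morphogenetic proteins act at the crypt top. Cells taken from crypts and grown on matrix often carry programmes of wound repair that mature surface cells lack.

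Depth, as the total of reads counted in genes, was 5456913, 11716792 and 5760580 in the day 5 libraries and 10237459, 14290393 and 13531646 in those of day 3. Replicate 1 of day 5 stood apart from the others: its log2 levels correlated with those of the other day 5 libraries at r = 0.938 and 0.942, against 0.980 between those libraries, and it had the fewest genes with a count, 12293. Results that rest on it are given with and without it. The summed defining markers of fibroblasts and muscle reached at most 3.92 CPM at day 5 and 1.66 CPM at day 3. A longer list of fibroblast and smooth muscle genes, which epithelia also express in part, summed to 1040.0 to 1134 CPM at day 5 and 582 to 644 CPM at day 3, with 2 of 5 tested genes called higher and 1 lower (adjusted p under 0.05 with edgeR), against 12.6% and 12.5% of all genes tested. Its matrix gene fibronectin (Fn1) had 808, 845 and 918 CPM at day 5, against 356, 354 and 368 CPM at day 3, without overlap (log2 fold change 1.25 ± 0.07), and the actin Acta2 had 0.981, 1.21 and 1.34 CPM at day 5, against 0, 0.208 and 0.146 CPM at day 3 (3.10 ± 0.94), a call lost with any 1 library of day 3, or day 5 replicate 3, left out (adjusted p from 0.0805 to 0.117). The part of such cells in the results was not tested. Markers of endothelium were at 0 in all day 5 libraries. Leukocyte markers summed to 20.01 to 24.1 CPM at day 5 and 26.4 to 37.6 CPM at day 3, while 7 general epithelial markers summed to 10336 to 11214 CPM at day 5 and 13537 to 14025 CPM at day 3. The nuclear RNA Malat1 took up 11 ± 1.52% of gene counts at day 5 and 5.81 ± 0.169% at day 3 (SD, n = 3 each).

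At day 5, transcripts of mitosis were lower by several fold, and those of protein synthesis and amino acid supply were lower too, while transcripts of absorptive colonocytes, of xenobiotic metabolism and of the interferon response were higher, by the counts given for each list. Of 11910 genes tested with edgeR's quasi-likelihood test, 2996 (25.2%) were called at an adjusted p under 0.05, 1503 (12.6%) higher and 1493 (12.5%) lower at day 5. The change was at least 2-fold for 387 genes called higher and 499 called lower, and at least 4-fold for 134 and 192. Levels throughout are CPM, read counts relative to the library total, scaled by TMM factors, and a value in brackets after a gene, or given as a change, is its log2 fold change, day 5 over day 3, ± the standard error of the fit to 3 libraries a day. The verbs rose and fell are used of called genes. The 3 day 5 libraries lay all above the 3 of day 3 in 20.9% of the genes tested and all below in 21.8%. Without day 5 replicate 1, 1777 genes were called higher and 1963 lower, and 2855 of the 2996 calls were shared, all with the same direction. Leaving out 1 library of day 3 instead gave 988 higher and 996 lower without replicate 1, 978 and 966 without replicate 2, and 1058 and 1025 without replicate 3.

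**Figure D1:**
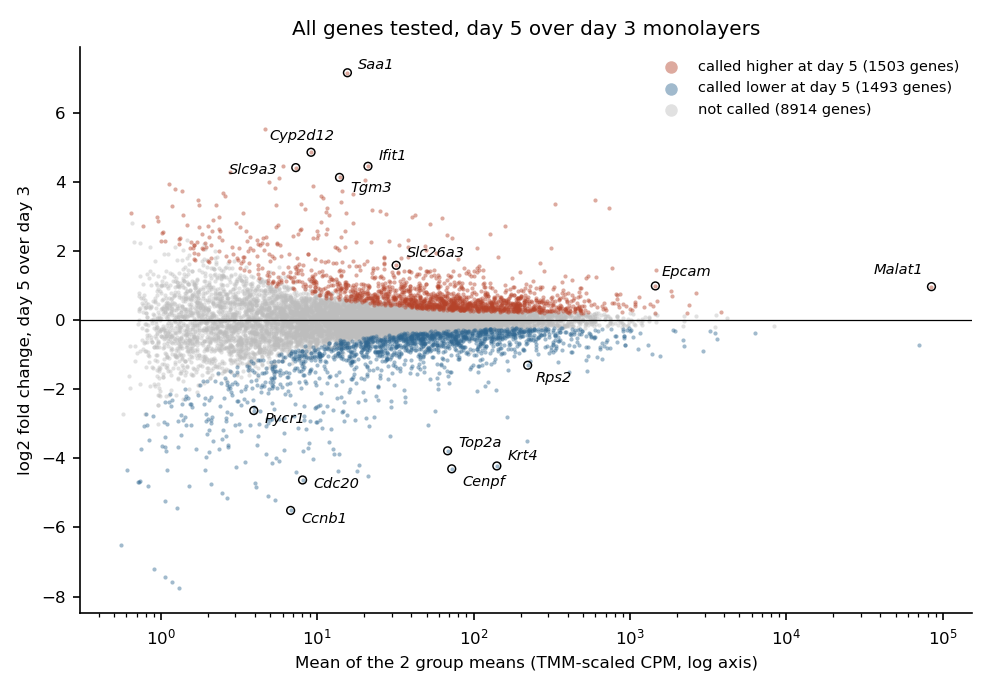
Each point is 1 of the 11910 genes tested, with the mean of the day 5 and day 3 group means on the x axis (TMM-scaled CPM, log axis) and the log2 fold change of day 5 over day 3 on the y axis. Genes called higher are red, genes called lower are blue and genes not called are grey. Saa1 at 7.16 ± 0.43 lies at the top and mitotic genes such as Ccnb1 at -5.51 ± 0.65 near the bottom, while the abundant Malat1 and Epcam lie about 1 log2 unit above 0.

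The largest rise among genes with a mean of at least 5 CPM was that of Saa1, an acute phase serum amyloid that colonocytes also make. It had 25.3, 38.8 and 28.9 CPM at day 5, against 0, 0.139 and 0.437 CPM at day 3. All day 5 libraries lay far above those of day 3 (log2 fold change 7.16 ± 0.43, adjusted p = 4.39e-08). Slc9a3, the apical sodium-proton exchanger that drives salt absorption, had 16.5, 11.9 and 13.5 CPM at day 5, against 0.385, 0.831 and 0.655 CPM at day 3. The groups were far apart (4.41 ± 0.39, adjusted p = 1.63e-06). Saa1 and Slc9a3 passed the count filter through day 5 alone, and genes as low at day 3 could be tested only as rises. Tgm3, a transglutaminase that cross-links proteins, had 24.5, 32.9 and 21.4 CPM at day 5, against 1.35, 1.59 and 1.53 CPM at day 3, again with no overlap (4.13 ± 0.27, adjusted p = 9.20e-08). The other genes among the 12 largest rises were the cytochromes Cyp2d12 (4.86 ± 0.35) and Cyp4f14 (3.64 ± 0.22), the glyoxalase-domain gene Glod5 (4.47 ± 0.53), the interferon-stimulated Ifit1 (4.45 ± 0.44) and Oasl2 (4.04 ± 0.23), the butyrophilin-like Btnl6 (4.11 ± 0.55), the phosphodiesterase Gdpd2 (3.88 ± 0.34), the inflammasome sensor Nlrp1b (3.82 ± 0.46) and the class Ib molecule H2-Q1 (3.73 ± 0.25). Their adjusted p ranged from 2.76e-08 to 6.71e-05. Saa, Cyp2d and H2-Q genes have near-identical copies, and since reads without a unique alignment were not counted, their values are uncertain.

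The 12 largest falls were mostly of genes known from cell division, and the keratin Krt4 was among them. Ccnb1, the cyclin that starts mitosis, had 0.196, 0 and 0.836 CPM at day 5, against 19.1, 11.4 and 9.03 CPM at day 3. It was near the floor of 3 counts in the day 5 libraries and well above it in each day 3 library (-5.51 ± 0.65, adjusted p = 2.06e-05). The other genes of this group besides Krt4 were Cdc20 (-4.63 ± 0.47), an activator of the anaphase-promoting complex, the kinesins Kif11 (-4.37 ± 0.31) and Kif14 (-4.41 ± 0.57), Cenpf (-4.30 ± 0.18) and Kntc1 (-4.08 ± 0.58) of the kinetochore, Nusap1 (-4.37 ± 0.42) and Hmmr (-4.52 ± 0.37) of the spindle, Iqgap3 (-5.20 ± 0.62), cyclin A2 (Ccna2, -4.20 ± 0.34) and Parpbp (-4.14 ± 0.63), a partner of PARP1 in DNA repair. Krt4, a keratin of stratified epithelium, had 8.04, 14.5 and 19.7 CPM at day 5, against 306, 257 and 239.5 CPM at day 3, so that its lowest day 3 library lay far above its highest day 5 library (-4.22 ± 0.19, adjusted p = 3.56e-09).

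**Figure D2:**
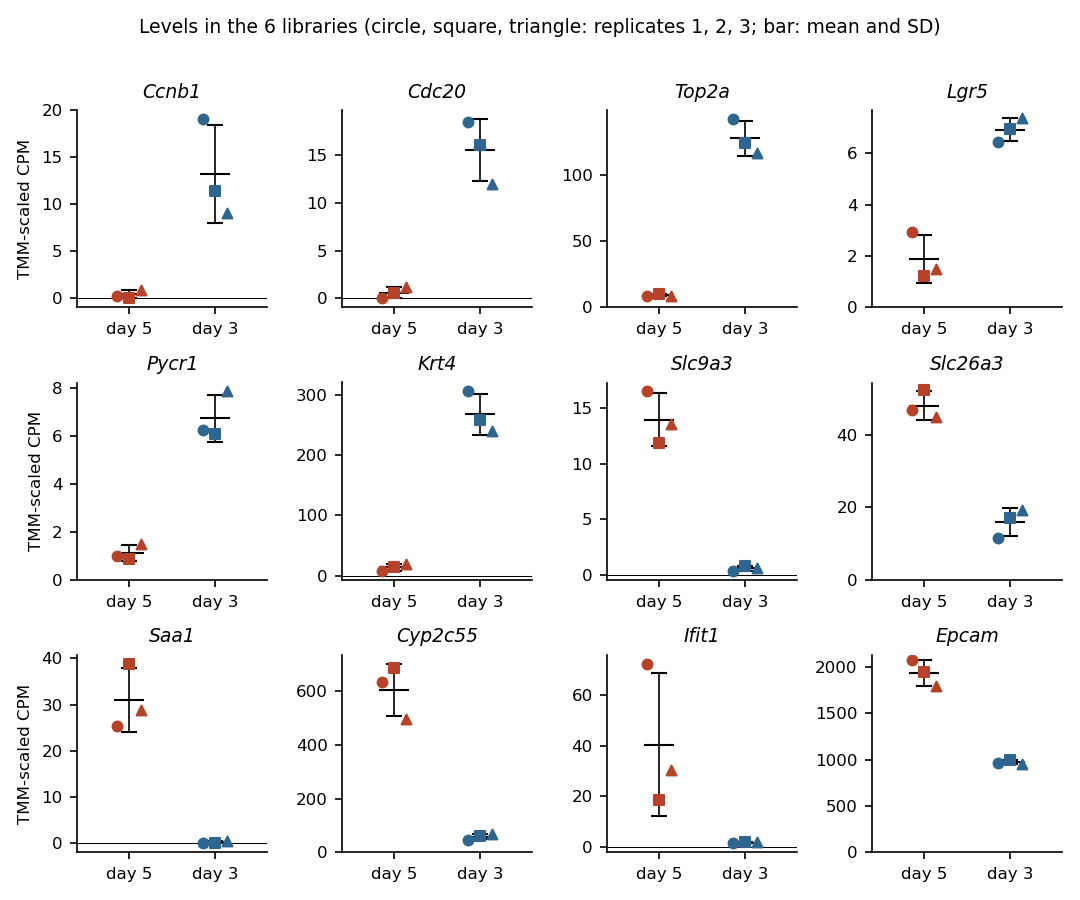
Levels (TMM-scaled CPM, linear axes from 0) of 12 named genes in the 3 day 5 libraries (red, left) and the 3 day 3 libraries (blue, right), with circles, squares and triangles for replicates 1, 2 and 3 and bars for the mean and SD. The day 5 and day 3 points do not overlap for any of the 12, and Ifit1 is the one whose day 5 replicate 1, at 72.2 CPM, stands far above the other day 5 libraries.

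Mitotic transcripts fell as a group. Of 48 tested genes of G2 phase and mitosis, 47 were called lower and 0 higher, and the median log2 fold change was -2.89, against -0.01 over all genes tested. The remaining gene was Cks2, a subunit that binds cyclin-dependent kinases, at -0.54 ± 0.41. Top2a, the topoisomerase that untangles chromosomes, had 8.83, 9.87 and 8.69 CPM at day 5, against 142, 124 and 116 CPM at day 3. Its day 5 libraries lay close together and far below those of day 3 (-3.78 ± 0.13, adjusted p = 7.14e-10). Mki67, the proliferation antigen, had 39.6, 30.1 and 39.3 CPM at day 5, against 493, 374 and 345 CPM at day 3, with all day 5 libraries lower (-3.49 ± 0.15, adjusted p = 1.47e-09). Bub1, a kinase of the spindle checkpoint, changed by -4.83 ± 0.51. In 47 of the 48 genes every day 5 library lay below every day 3 library, against 21.8% of all genes tested. Pbk, a mitotic kinase, had 1 count in the 3 day 5 libraries and 96 counts in those of day 3, a ratio of pooled CPM of 0.0177 (exact 95% interval 0.000445 to 0.101, counting error only). Pbk and Ccnb1, near the floor at day 5, passed the count filter through day 3 alone, and such genes could be tested only as falls. In bulk RNA, fewer dividing cells and less of each transcript per cell cannot be told apart.

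Genes of DNA replication fell less uniformly. Of 42 tested members of the S phase list, 18 were called lower and 1 higher, with a median of -0.74. The polymerase subunits Pole (-3.35 ± 0.45) and Pola1 (-3.28 ± 0.57) and the helicase subunits Mcm5 (-3.06 ± 0.69) and Mcm6 (-2.45 ± 0.37) fell. The call of Mcm5 was lost with DESeq2 (-3.0, adjusted p = 0.0707), and without day 5 replicate 3 it was at -5.11. Mcm6 had 2.16, 1.90 and 5.85 CPM at day 5, against 21.7, 17 and 13.9 CPM at day 3, with no overlap between days. The exception was Pcna, the sliding clamp of the polymerases, which also serves DNA repair and was called higher: it had 48.7, 42.6 and 45.5 CPM at day 5, against 29.5, 36.3 and 29.9 CPM at day 3 (0.51 ± 0.13, adjusted p = 0.0120). The day 5 libraries all lay above those of day 3, by a narrow margin, and the call was lost without day 3 replicate 1 (0.45, adjusted p = 0.0649) and without day 3 replicate 3 (0.46, adjusted p = 0.0698). E2f1, the transcription factor of S phase entry, was not called (0.65 ± 0.51), and neither was cyclin E1 (Ccne1, -0.44 ± 0.31). Of 24 tested histone genes that are mostly expressed with replication, 13 were called lower and 1 higher (median -1.12). Hist1h1b, a linker histone, changed by -3.16 ± 0.33, and the nucleosomal Hist1h3b and Hist1h2ae by -3.36 ± 0.63 and -2.89 ± 0.59. Hist1h3c had 3 counts over the day 5 libraries and 153 over those of day 3, a ratio of pooled CPM of 0.0334 (exact 95% interval 0.00681 to 0.0995). Histone genes share long identical stretches, so single members are uncertain.

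Inhibitors of the cycle were read in 1 list with the D cyclins and p53 targets. Of 32 tested inhibitors, D cyclins and p53 targets, 8 (25%) were called higher and 4 (12.5%) lower, the share of lower calls being that of all genes, with a median of 0.05, and without day 3 replicate 1 or 3 the number called higher was 5. Cdkn1b, the kinase inhibitor p27, had 80.8, 77.1 and 76.7 CPM at day 5, against 38.9, 40.0 and 43.0 CPM at day 3. All day 5 libraries were higher (0.94 ± 0.10, adjusted p = 1.23e-05). The D cyclins Ccnd1 and Ccnd2, which bring cells into the cycle, fell by 0.76 and 0.87 on the log2 scale. Cdkn1a, the p21 inhibitor downstream of p53, was called higher at 0.39 ± 0.10, a call lost without day 3 replicate 1 (0.34, adjusted p = 0.0536) and without day 3 replicate 3 (0.35, adjusted p = 0.0539), while Mdm2 (0.03 ± 0.08), the p53 target that degrades p53, was not called.

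Promoters of mitotic genes are shown because these genes, which fell together, are known to share promoter elements. The cell cycle genes homology region (CHR), bound by the DREAM and MuvB complexes, was searched as TTTGAA or TTCGAA, and the CCAAT box, bound by NF-Y, as CCAAT, each on both strands in the 250 bases before the start in RefSeq promoters (GRCm38.p6). A CHR match stood in 16 of 42 promoters (38.1%) of the 40 matched mitotic genes, in 15% of 40 S phase promoters and in 12.3% of 12153 promoters of genes tested. CCAAT matches stood in 81.0%, 55% and 35.5% of the same 3 sets, and matches to the E2F element, searched as TTTCGCGC or TTTGGCGC, in 4.76%, 15% and 1.34%. Matches to CHR and CCAAT, or to CCAAT and E2F, can share at most 1 base, and those to CHR and E2F none. A match describes the letters in this window and no binding. The promoters of 4 genes with a match follow, with the CHR letters, or their reverse complement, in capitals.
Cdc20 (chr4:118437344-118437493, minus strand): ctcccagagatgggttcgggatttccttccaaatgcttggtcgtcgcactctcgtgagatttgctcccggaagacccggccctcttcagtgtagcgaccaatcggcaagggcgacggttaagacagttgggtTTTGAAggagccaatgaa
Kif11 (chr19:37376232-37376381, plus strand): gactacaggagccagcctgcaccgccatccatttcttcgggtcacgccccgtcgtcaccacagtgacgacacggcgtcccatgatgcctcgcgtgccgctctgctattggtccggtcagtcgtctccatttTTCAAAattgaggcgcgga
Top2a (chr11:99024190-99024439, minus strand): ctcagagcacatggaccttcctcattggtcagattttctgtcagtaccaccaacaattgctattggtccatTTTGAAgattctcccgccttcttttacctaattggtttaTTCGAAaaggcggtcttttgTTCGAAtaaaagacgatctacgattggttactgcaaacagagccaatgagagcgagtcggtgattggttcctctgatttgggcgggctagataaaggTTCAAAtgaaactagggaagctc
Mki67 (chr7:135716380-135716529, minus strand): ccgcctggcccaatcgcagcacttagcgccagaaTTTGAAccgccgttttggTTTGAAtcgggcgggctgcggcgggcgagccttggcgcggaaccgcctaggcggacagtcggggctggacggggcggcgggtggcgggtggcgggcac
Each line ends at the base before the start. In Cdc20 and Kif11 the single match began 18 and 19 bases before it, in Top2a the nearest of 4 began 23 bases before it, and in Mki67 both lay further off, at 116 and 98 bases.

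Part of the stem cell transcripts fell. Of 20 tested stem cell genes, 9 were called lower and 1 higher (median -0.24). Lgr5, the R-spondin receptor that marks stem cells, had 2.94, 1.21 and 1.5 CPM at day 5, against 6.45, 6.92 and 7.36 CPM at day 3. The highest day 5 library lay below the lowest of day 3 (-1.94 ± 0.42, adjusted p = 0.00339). Axin2, a feedback target of Wnt, had 97.9, 137 and 124 CPM at day 5, against 189.8, 173 and 168 CPM at day 3, a smaller fall without overlap (-0.56 ± 0.11, adjusted p = 0.00196). Cd44, a hyaluronan receptor and Wnt target, Sox9, a crypt base transcription factor, and Hopx changed by -1.51 ± 0.09, -0.98 ± 0.10 and -0.75 ± 0.11. Of 15 tested genes of the Wnt pathway 2 (13.3%) were called higher, near the 12.6% of all genes, and 4 (26.7%) lower (2 lower with any 1 library of day 3 left out). The transcription factor Tcf7 (-1.51 ± 0.31) and the Wnt target Myc were among those lower. Myc had 78.5, 85.0 and 106 CPM at day 5, against 258, 215 and 258 CPM at day 3, and its day 5 libraries were all lower (-1.44 ± 0.11, adjusted p = 6.32e-07). Ascl2, a stem cell factor, had too few counts to be tested, with 0 to 0.433 CPM at day 5 and 0.289 to 0.728 CPM at day 3.

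Several ligands of the EGF receptor also fell, though not all of those tested were called. Of 22 tested genes of the EGF receptor axis, 9 were called lower and 2 higher (median -0.37). The ligands epiregulin (Ereg, -1.49 ± 0.09), amphiregulin (Areg, -1.06 ± 0.10) and betacellulin (Btc, -0.93 ± 0.13) fell, as did the ERK-induced factor Etv4 (-1.05 ± 0.23). Areg had 460.5, 365 and 373 CPM at day 5, against 744, 903 and 847 CPM at day 3, with no overlap. The receptors Erbb2 (0.79 ± 0.07) and Erbb3 (0.57 ± 0.09) were called higher and Egfr was not called (-0.03 ± 0.08). Of 24 tested YAP targets and partners 8 (33.3%) were called lower and 2 (8.3%) higher (4 without day 5 replicate 1). The median was -0.04, near the -0.01 over all genes tested, so the list did not fall as a whole. The secreted matricellular targets Ctgf and Cyr61 fell by 1.14 and 0.79 on the log2 scale. In the BMP and TGF-beta list, 5 of 25 (20%) were called higher (3 without day 3 replicate 1 or 3 or day 5 replicate 2) and 2 (8%) lower. The shares of all genes were 12.6% and 12.5%, and the median of the list was 0.13. The ligand Bmp3 (1.0 ± 0.21) and the receptor Acvr1b (1.04 ± 0.13) rose, while Id2, an inhibitor of helix-loop-helix factors, fell by 1.18. In the Notch list 3 of 14 were called lower and 0 higher (5 lower without day 5 replicate 1, 1 lower with any 1 library of day 3 left out), with the coactivator Maml2 at -0.93 ± 0.17.

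Genes of the machinery that builds proteins fell in several lists. Of 46 tested ribosomal protein genes 34 were called lower and 0 higher, with a median of -0.68. Rps2, of the small subunit, had 113, 118 and 153 CPM at day 5, against 315, 335 and 297 CPM at day 3. Every day 5 library was lower (-1.31 ± 0.11, adjusted p = 8.04e-07), as for Rpl14 of the large subunit (-0.97 ± 0.14). Their transcripts are short, and short transcripts in general were slightly lower at day 5: the median was -0.12 in the shortest 20% of genes and 0.06 in the longest, and -0.11 in the shortest 20% without the ribosomal list, of which 37 of 46 members belong there. Reads without a unique alignment, which include those of genes with processed pseudogenes, made up 15.3 ± 1.01% of all reads at day 5 and 17.8 ± 0.80% at day 3 (SD, n = 3 each), and the part of either in the ribosomal values was not tested.

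Of 38 tested genes of ribosome assembly 19 were called lower and 0 higher, with 12 lower without day 3 replicate 2 (median -0.66). The pseudouridine synthase Dkc1 changed by -1.35 ± 0.28 and Nop56, a core protein of the methylation guide complex, by -1.07 ± 0.15. Of 31 tested tRNA synthetases and translation factors 25 were called lower and 1 higher (median -0.71). The synthetases for methionine (Mars, -1.28 ± 0.13), tryptophan (Wars, -1.23 ± 0.09), asparagine (Nars, -1.23 ± 0.10) and isoleucine (Iars, -1.20 ± 0.10) fell most among those with at least 1 CPM. Nars had 182, 220.2 and 221 CPM at day 5, against 436, 538 and 486 CPM at day 3, and the days did not overlap.

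The response to amino acid shortage fell as well. ATF4 is the transcription factor through which cells answer amino acid shortage and endoplasmic reticulum stress. Of 27 tested genes of this response 20 were called lower and 0 higher, with a median of -1.13. Psat1, of serine synthesis, had 12.8, 10.2 and 10.7 CPM at day 5, against 80.5, 96.0 and 96.9 CPM at day 3. The day 5 libraries lay far below those of day 3 (-3.04 ± 0.14, adjusted p = 4.12e-09). Pycr1, of proline synthesis, had 0.981, 0.866 and 1.5 CPM at day 5, against 6.26, 6.09 and 7.86 CPM at day 3, with no overlap (-2.62 ± 0.43, adjusted p = 4.47e-04). Trib3, a pseudokinase induced by ATF4, and Slc7a5, a carrier of large neutral amino acids, changed by -2.50 ± 0.22 and -2.19 ± 0.23, and the cystine carrier Slc7a11 by -1.80 ± 0.13. Atf4 itself was lower at -0.98 ± 0.08, Atf3 at -1.13 ± 0.20. The chaperone list of the endoplasmic reticulum, which stress of that compartment also drives, had 8 of 27 called lower and 2 higher, with the chaperone Hspa5 at -0.81 ± 0.10.
The composite element read by ATF4 and C/EBP factors (CARE), whose matches can share at most 1 base with those to CCAAT, was searched as TGATGNAA on both strands in the same windows, a search added after the falls had been seen. It stood in 6 of 30 promoters (20%) of 25 matched genes of the response and in 1.99% of promoters of genes tested. The promoters of a synthesis enzyme and of a transcription factor of the response show it in capitals, in Atf3 as the reverse complement.
Pycr1 (chr11:120643749-120643898, minus strand): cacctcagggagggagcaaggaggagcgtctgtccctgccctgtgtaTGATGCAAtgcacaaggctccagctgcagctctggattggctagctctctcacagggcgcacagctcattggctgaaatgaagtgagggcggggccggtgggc
Atf3 (chr1:191183334-191183483, minus strand): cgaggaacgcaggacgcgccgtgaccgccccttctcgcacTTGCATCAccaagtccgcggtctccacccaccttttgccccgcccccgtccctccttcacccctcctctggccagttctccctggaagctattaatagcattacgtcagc
The match began 103 bases before the start in Pycr1 and 110 bases before it in Atf3.

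Transcripts of absorptive colonocytes rose. Of 29 tested members of the colonocyte list 19 were called higher and 2 lower, with a median of 1.03. Slc26a3, the chloride-bicarbonate exchanger of the surface, had 46.9, 52.4 and 44.8 CPM at day 5, against 11.7, 17 and 19.2 CPM at day 3. All day 5 libraries lay above those of day 3 (1.59 ± 0.18, adjusted p = 1.28e-05). Krt20, a keratin of mature surface cells, had 191, 159 and 158 CPM at day 5, against 36.1, 36.8 and 46.6 CPM at day 3, again without overlap (2.08 ± 0.12, adjusted p = 3.19e-08). Lypd8, which keeps flagellated bacteria off the colonic surface, rose by 3.26 ± 0.12, the short-chain fatty acid carrier Slc5a8 by 2.19 ± 0.43 and the carbonic anhydrase Car1 by 0.70 ± 0.07. Car2 (0.17 ± 0.06) and the hormone guanylin (Guca2a, 1.32 ± 0.60) were not called, and Car4 and Aqp8, markers of the mature colonic surface, had too few counts to be tested: Car4 had 6 counts in all at day 5 and 0 at day 3, and Aqp8 had 0.260 to 1.34 CPM at day 5 and 0.139 to 0.193 CPM at day 3.

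The brush border is the comb of microvilli on the absorptive surface. Of 22 tested genes 13 were called higher and 1 lower (median 0.35), and 4 were called lower without day 5 replicate 1. Espn, an actin bundler, rose by 2.12 ± 0.23, and Cdhr5 and Ush1c, which link the tips of microvilli, by 1.43 ± 0.08 and 1.05 ± 0.08, while villin (Vil1, 0.05 ± 0.08) was not called. Of 35 tested genes of ion and water transport 17 were called higher and 7 lower. The genes called higher include Slc9a3 and Slc26a3, above, the sodium pump subunit Atp1b1 (1.51 ± 0.08) and the epithelial sodium channel subunit Scnn1a (0.56 ± 0.09), which serve absorption. Those called lower include the chloride channel Cftr and the potassium channel Kcnn4 (-1.45 ± 0.18), which serve secretion, and the water channel Aqp4 (-2.81 ± 0.11). Other secretion genes of the list, a chloride uptake carrier and potassium channel subunits among them, were not called. Cftr had 10.8, 4.59 and 8.86 CPM at day 5, against 25.7, 22.3 and 27.7 CPM at day 3, with every day 5 library lower (-1.70 ± 0.27, adjusted p = 2.68e-04).

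Genes of xenobiotic metabolism rose at day 5. Of 40 tested enzymes and transporters 23 were called higher and 3 lower (median 0.93). Cyp2c55, a cytochrome P450 abundant in mouse colon, had 632, 684 and 496 CPM at day 5, against 47.3, 61.4 and 67.1 CPM at day 3. The days were far apart (3.36 ± 0.14, adjusted p = 1.46e-09). The carboxylesterase Ces1d rose by 4.00 ± 0.67 and Cyp2d26 by 2.98 ± 0.19, in families whose copies share sequence. The sulfotransferase Sult1b1 (2.72 ± 0.14) and the efflux pumps Abcb1a (1.11 ± 0.08) and Abcg2 (1.21 ± 0.13) were also called higher, and the dioxin receptor Ahr was called lower (-0.62 ± 0.15). Of 35 tested genes of fatty acid oxidation, by which colonocytes burn butyrate in the body, 10 (28.6%) were called higher (6 without day 3 replicate 1). Another 4 (11.4%) were called lower, against 12.6% and 12.5% of all genes. The median of this list was 0.06, and -0.01 without day 5 replicate 1. Ppargc1a, a coactivator of mitochondrial genes, was at 1.45 ± 0.13.

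**Figure D3:**
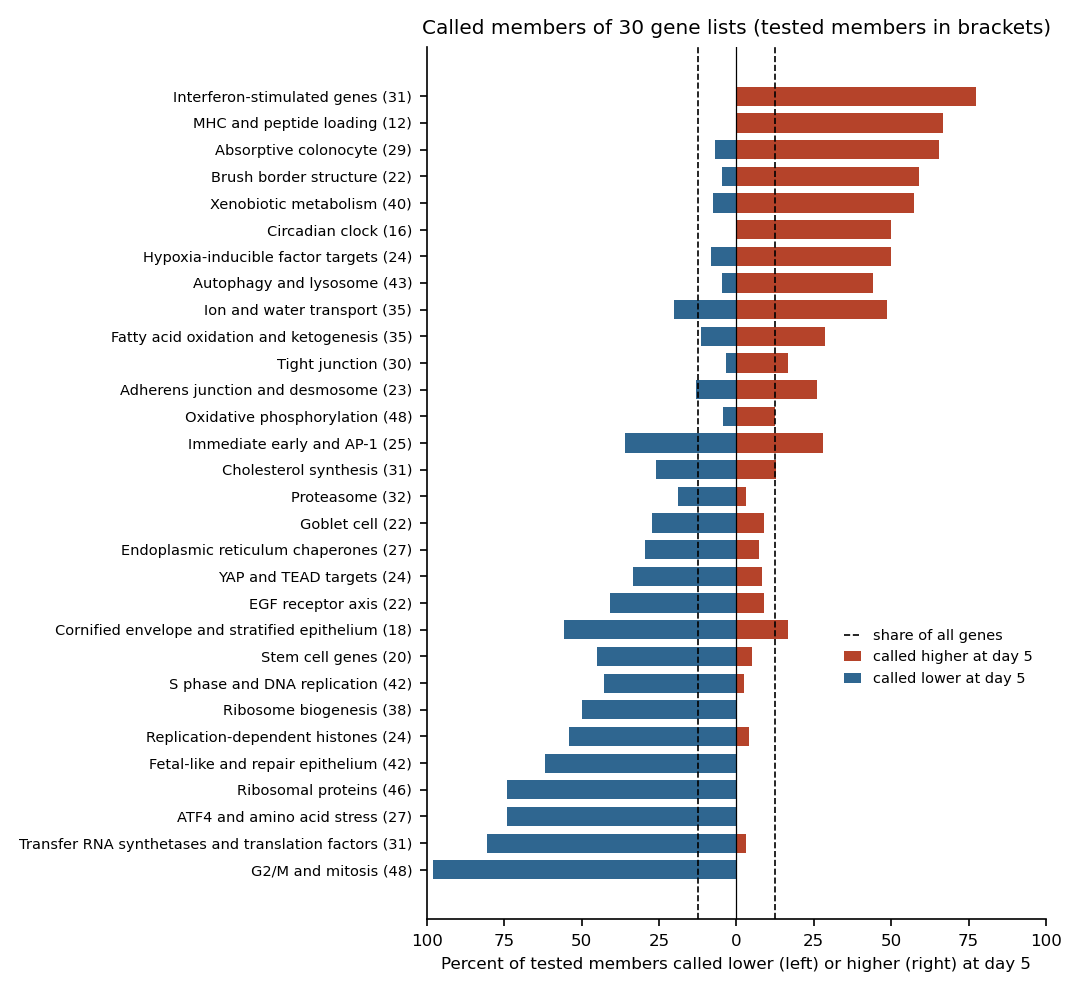
Share of the tested members of 30 lists called higher (red, right) or lower (blue, left) at day 5, in percent, with the number tested in brackets and the shares over all genes tested (12.6% higher, 12.5% lower) as dashed lines. Interferon, peptide-loading and absorptive lists lie at the top, and mitosis, tRNA synthetases, the ATF4 response and ribosomal proteins at the bottom.

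Transcripts of secretory lineages were sparse on both days. Of 22 tested goblet cell genes 2 were called higher and 6 lower. Without day 5 replicate 1, 10 of 23 were called lower, and without day 3 replicate 2 only 1 was. Muc2, the gel-forming mucin, had 53.0, 5.20 and 5.85 CPM at day 5, against 9.44, 12.2 and 13.7 CPM at day 3. Replicate 1 of day 5 alone was high, the groups overlapped, and the gene was not called (0.79 ± 0.62, adjusted p = 0.385). When all genes with at least 1 count were tested it was called higher (0.76, adjusted p = 0.00765), and without that library it was called lower, at -1.12 with adjusted p = 0.00139. Tff3, the goblet cell trefoil peptide, had 3.14, 2.25 and 0.836 CPM at day 5, against 5.11, 9.56 and 6.85 CPM at day 3, lower in all day 5 libraries (-1.79 ± 0.45, adjusted p = 0.00914), and the disulfide isomerase Agr2, needed for mucin folding, changed by -2.87 ± 0.75. Without day 3 replicate 2 neither call held (Tff3 -1.53, adjusted p = 0.0901, and Agr2 -2.49, adjusted p = 0.0889), Agr2 was not called with DESeq2 either (-2.63, adjusted p = 0.135), and without day 5 replicate 1 Agr2 was at -5.60. The hormone precursor Gcg had 0, 0.520 and 0.836 CPM at day 5, against 3.76, 3.19 and 1.02 CPM at day 3, without overlap (-2.44 ± 0.80, adjusted p = 0.0372), a call lost without day 3 replicate 1 (-2.13, adjusted p = 0.174), day 3 replicate 2 (-2.29, adjusted p = 0.155) or day 5 replicate 2 (-2.55, adjusted p = 0.0980). Chromogranin A (Chga, 0.39 ± 0.39) was not called. Of 6 tested enteroendocrine genes 1 was called higher and 2 lower, and of 7 tested tuft cell genes 0 and 2.

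Genes of repair and of stratified epithelium fell. Of 42 tested genes known from fetal or wounded gut 26 were called lower and 0 higher (median -0.47). Il33, an alarmin cytokine, had 16.9, 28.7 and 27.2 CPM at day 5, against 91.1, 78.2 and 74.1 CPM at day 3. All day 5 libraries were lower (-1.71 ± 0.16, adjusted p = 3.38e-06). The gap junction gene Gja1 changed by -1.48 ± 0.29, the tubulin Tubb6 by -1.32 ± 0.21 and the annexin Anxa1 by -0.71 ± 0.08, while the repair marker Ly6a (0.09 ± 0.10) was not called. Of 18 tested genes of stratified epithelium 10 were called lower and 3 higher (median -1.04), and their 5 defining markers summed to 11.6 to 24.4 CPM at day 5 and 256 to 322 CPM at day 3. Besides Krt4, the cross-linking enzyme Tgm1 (-2.96 ± 0.27) and the basal keratin Krt14 (-2.42 ± 0.36) fell, whereas Tgm3 rose. Of 8 tested keratins of simple epithelium 6 were called lower, among them Krt19 (-0.91 ± 0.08) and Krt8 (-0.55 ± 0.07), and 1, Krt20, higher. General epithelial markers moved both ways: Epcam, a cell adhesion molecule, had 2068, 1939 and 1795 CPM at day 5, against 964, 999 and 958 CPM at day 3, without overlap (0.99 ± 0.07, adjusted p = 2.43e-07), and E-cadherin (Cdh1, 0.13 ± 0.07) was not called.

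Tight junction genes were mostly not called. Of 30 tested, 5 (16.7%) were called higher, a share near the 12.6% of all genes (3 without day 5 replicate 2 or with any 1 library of day 3 left out), and 1 lower, with a median of 0.12. The genes called higher included Marveld3, an occludin relative, at 0.59 ± 0.12, the viral receptor Cxadr at 0.40 ± 0.09 and the claudin Cldn23 at 0.62 ± 0.14, a call lost in the fit of all 12 libraries (0.62, adjusted p = 0.0768). Cldn3 (0.22 ± 0.09), Cldn4 (-0.10 ± 0.09), Cldn7 (0.15 ± 0.08), Cldn8 (-0.14 ± 0.53), occludin (Ocln, 0.24 ± 0.09) and the scaffold Tjp1 (-0.11 ± 0.08) were not called. Cldn7 had 247, 244 and 268 CPM at day 5, against 223, 221 and 239 CPM at day 3, and a p that misses the threshold does not show equal levels. In the adherens junction and desmosome list 6 of 23 (26.1%) were called higher and 3 (13.0%) lower, the latter near the 12.5% of all genes (5 lower without day 5 replicate 1). Among the lower were the desmosomal plakophilin Pkp1 at -2.04 ± 0.11 and vinculin (Vcl) at -0.49 ± 0.09. In the basement membrane and integrin list 3 of 28 (10.7%) were called higher, no more than the 12.6% of all genes, with the anchoring collagen Col7a1 (2.22 ± 0.40) and the laminin chain Lama3 (0.93 ± 0.09). Another 7 (25%) were called lower (3 without day 3 replicate 3, 4 without day 3 replicate 1 or day 5 replicate 2), with the collagen receptor Itga2 (-0.94 ± 0.08). Of 22 tested proteases and their inhibitors 5 were called higher, with the membrane serine protease Tmprss4 (0.73 ± 0.12) and the inhibitor Spint2 (0.68 ± 0.08), and 4 lower (2 with any 1 library of day 3 left out, 6 without day 5 replicate 1), with the urokinase receptor Plaur (-0.78 ± 0.12).

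Interferon-stimulated genes rose at day 5. Of 31 tested members 24 were called higher and 0 lower, with a median of 1.45. Ifit1, which binds foreign RNA, had 72.2, 18.7 and 30.4 CPM at day 5, against 1.44, 2.08 and 1.82 CPM at day 3. Day 5 replicate 1 was the highest, and the other day 5 libraries still lay well above those of day 3 (4.45 ± 0.44, adjusted p = 4.34e-06, and 3.73 with adjusted p = 1.42e-10 without that library). Irf7, the transcription factor that amplifies the response, was at 2.79 ± 0.15 and Stat2, a factor that carries the interferon signal, at 1.43 ± 0.23. Trim30a, an ubiquitin ligase of the response, had 4.90, 3.12 and 6.02 CPM at day 5, against 0.0963, 0.831 and 0.0728 CPM at day 3 (3.67 ± 0.76, adjusted p = 0.00241, and 5.59 without day 3 replicate 2). Without day 5 replicate 1, 26 of 33 tested members were called higher, with a median of 1.22. Trim30a and others as low at day 3 passed the count filter through their day 5 counts alone. Such genes could enter the list only as rises, which tilts its share and median upward. Of 12 tested genes of class I and class II presentation 8 were called higher and 0 lower. The 8 were genes of class I or its peptide loading, and no class II gene tested was called. Among the 8 were H2-T23 at 1.07 ± 0.18, and B2m, the light chain of class I, at 0.70 ± 0.09, a call lost in the fit of all 12 libraries (0.70, adjusted p = 0.0625). Leukocyte markers, given above, summed to less in each day 5 library than in any of day 3, and Ptprc, the pan-leukocyte phosphatase, had 0 to 0.589 CPM at day 5 and 0.139 to 0.437 CPM at day 3. Only 1 of these 6 markers had enough counts to be tested, and they summed to 13.1 to 28.0 CPM in crypts. The part of leukocytes in these rises was not tested.
The interferon-stimulated response element (ISRE), searched as GAAA, any 2 bases and GAAA on both strands in the windows described above and added after the rise had been seen, stood in 14 of 29 promoters (48.3%) of 24 matched genes of the list and in 2.48% of promoters of genes tested. It is known as a site through which interferons switch on their target genes. The element, here as the reverse complement in capitals, is shown in the gene with the largest rise of the list and in Trim30a.
Ifit1 (chr19:34640739-34640888, plus strand): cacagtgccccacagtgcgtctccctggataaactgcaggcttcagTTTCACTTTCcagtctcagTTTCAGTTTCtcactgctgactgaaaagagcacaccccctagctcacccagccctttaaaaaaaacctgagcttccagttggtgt
Trim30a (chr7:104465194-104465343, minus strand): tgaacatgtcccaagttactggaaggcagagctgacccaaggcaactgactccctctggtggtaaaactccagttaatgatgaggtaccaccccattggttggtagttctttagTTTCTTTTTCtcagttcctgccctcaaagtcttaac
In Ifit1 the matches began 104 and 85 bases before the start, and in Trim30a 36 bases before it.

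**Figure D4:**
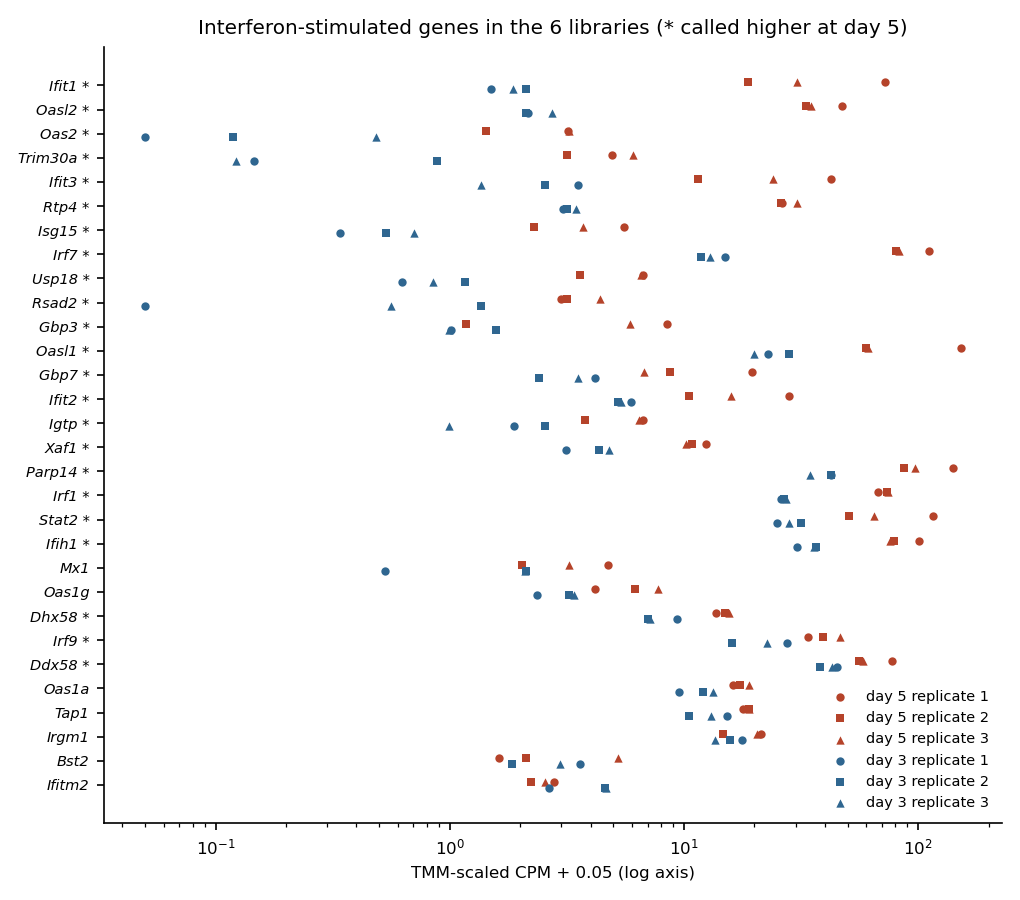
Levels (TMM-scaled CPM plus 0.05, log axis) of 30 of the 31 tested interferon-stimulated genes in the day 5 libraries (red) and the day 3 libraries (blue), ordered by log2 fold change, with circles, squares and triangles for replicates 1, 2 and 3 and a star for genes called higher at day 5. For 25 of the 30 genes the 3 red points lie to the right of the 3 blue ones, which held for 20.9% of all genes tested. For Ifit1, Oasl1 and Stat2 the red circle of replicate 1 lies furthest right.

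Other genes of defence did not follow 1 direction. In the antimicrobial list 8 of 13 tested genes were called higher and 1, the nitric oxide synthase Nos2 (-1.88 ± 0.35), lower. Pigr, which carries antibodies across the epithelium, was at 1.04 ± 0.23 and the hydrogen peroxide source Duox2 at 1.58 ± 0.32. Of 25 tested cytokines and NF-kB feedback genes 5 were called higher (3 without day 3 replicate 1 or 2 or day 5 replicate 2), with the chemokine Ccl28 (1.34 ± 0.13), and 8 lower (5 without day 3 replicate 1 or 3). Cxcl1, a neutrophil chemokine, was called lower at -1.51 ± 0.47, but lost the call when any 1 library of day 3, or day 5 replicate 3, was left out (adjusted p from 0.0598 to 0.144). In prostaglandin metabolism 3 of 13 tested genes were called higher and 4 lower. The synthesis genes Ptgs2 (-1.05 ± 0.09) and Pla2g4a (-1.48 ± 0.16) fell and the uptake and breakdown genes Slco2a1 (3.58 ± 0.71) and Hpgd (1.46 ± 0.10) rose, while the other 5 synthesis genes of the list were not called. Slco2a1, the prostaglandin carrier, had 8.44, 3.81 and 2.01 CPM at day 5, against 0.193, 0.623 and 0.291 CPM at day 3, and Ptgs2, the inducible cyclooxygenase, had 118, 109.7 and 129.9 CPM at day 5, against 245, 237 and 256 CPM at day 3. Neither gene overlapped between the days. Slco2a1 passed the count filter through day 5 alone and could be tested only as a rise.

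Part of the lysosomal and clock genes rose. Of 43 tested genes of autophagy and lysosomes 19 were called higher and 2 lower, 4 without day 5 replicate 1 (median 0.32), with the protease cathepsin S (Ctss, 2.32 ± 0.19) and the hexosaminidase Hexa (1.0 ± 0.11) as the largest. Of 16 tested clock genes 8 were called higher (5 in the fit of all 12 libraries) and 0 lower (median 0.52), among them Per1 (0.75 ± 0.15), Per3 (0.73 ± 0.10) and Cry2 (0.80 ± 0.12), repressors of the clock. The hour of lysis is unknown here for either day, and day in culture and clock hour cannot be told apart. Of 14 tested corticosteroid receptors and targets 6 were called higher, with the mineralocorticoid receptor Nr3c2 (1.04 ± 0.13) and the kinase Sgk1 (1.40 ± 0.20), and 3 lower, with the metallothionein Mt2 (-1.5 ± 0.28). Of 24 tested targets and members of the hypoxia response 12 were called higher and 2 lower, with the peptide adrenomedullin (Adm) at 0.96 ± 0.18 and the factor Epas1 at 1.0 ± 0.14, while the glucose carrier Slc2a1 was not called (0.10 ± 0.08).

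The lists of energy metabolism differed in their shares of calls. Oxidative phosphorylation had 6 of 48 (12.5%) called higher, no more than the 12.6% of all genes (2 without day 3 replicate 3, 3 without day 5 replicate 2), and 2 lower, at medians of 0.06 for the list and -0.01 for all genes. Glycolysis had 6 of 22 (27.3%) higher and 1 lower, with the regulator Pfkfb4 at 1.39 ± 0.26. Cholesterol synthesis had 4 of 31 (12.9%) higher and 8 (25.8%) lower. The NRF2 list had 4 of 27 (14.8%) higher (2 without day 3 replicate 1) and 5 (18.5%) lower, against 12.6% and 12.5% of all genes. Proteasome genes were called lower in 6 of 32 cases (10 of 33 without day 5 replicate 1, and 3 without day 3 replicate 1 or 2 or day 5 replicate 2) and higher in 1, that of the interferon-induced subunit Psmb9 (2.08 ± 0.72), a call lost without day 3 replicate 1 or 2 and without day 5 replicate 2 or 3 (1.77, 1.66, 1.91 and 2.10, adjusted p from 0.0975 to 0.207). Of 22 tested heat shock genes 2, the near-identical inducible Hspa1a (1.52 ± 0.21) and Hspa1b (1.03 ± 0.12), whose single values are uncertain, were called higher and 5 lower (3 without day 3 replicate 1). Of 25 tested immediate early genes 7 were called higher (3 without day 3 replicate 1) and 9 lower, with the AP-1 subunit Fosl1 at -1.71 ± 0.21. Of 32 tested cell death genes 5 (15.6%) were called higher (3 without day 3 replicate 2) and 4 (12.5%) lower, near the 12.6% and 12.5% of all genes. Caspase 1 (Casp1) was at 1.06 ± 0.12 and the necroptosis kinase Ripk3 at -1.0 ± 0.18. Intestinal identity factors moved both ways: 10 of 42 tested factors were called higher, with Klf4 (0.49 ± 0.09) and the vitamin D receptor Vdr (1.72 ± 0.23), and 8 lower (4 without day 3 replicate 3), with Foxa2 (-1.78 ± 0.36), while Cdx2, which specifies intestine, was not called (0.0003 ± 0.15). Of 17 tested noncoding RNAs 2 (11.8%), Malat1 (0.97 ± 0.10) and Neat1 (0.37 ± 0.07), were called higher, a share near the 12.6% of all genes. Another 7 (41.2%) were called lower (3 without day 3 replicate 2), among them the snoRNA hosts Snhg1 (-1.87 ± 0.15) and Snhg5 (-1.49 ± 0.29). Of genes often used for normalization 3 of 14 were called higher and 4 lower, with lower values for Actb (-0.36 ± 0.07) and Tubb5 (-0.94 ± 0.11), while Gapdh was not called (0.05 ± 0.27).

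The day 4 libraries, which the fit did not use, show when within the interval the groups moved. The labels give them the highest resistance, 623 ± 15 ohm cm2. The day 4 mean lay between the others for 1340 of the 1503 genes called higher and 1323 of the 1493 called lower, an outcome favoured by the choice of genes that differ between the ends. By day 4 the median gene called higher had made 42.8% of its change on the log2 scale and the median gene called lower 37.5%. Among called members the median share was 12.2% for mitosis and 7.28% for ribosomal proteins, which stayed near their day 3 level at day 4. It was 47.0% for DNA replication, 50.4% for the ATF4 response, 49.3% for xenobiotic metabolism, 51.4% for the repair list, 38.0% for interferon-stimulated genes and 34.8% for absorptive colonocytes. Top2a averaged 127 ± 13.2 CPM at day 3, 93.5 ± 15.8 CPM at day 4 and 9.13 ± 0.644 CPM at day 5 (SD, n = 3 each). Pycr1 averaged 6.74 ± 0.978, 4.32 ± 0.531 and 1.12 ± 0.340 CPM on the same days, so that the day 4 libraries lay between the others. Differences between lists in this share were not tested.

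**Figure D5:**
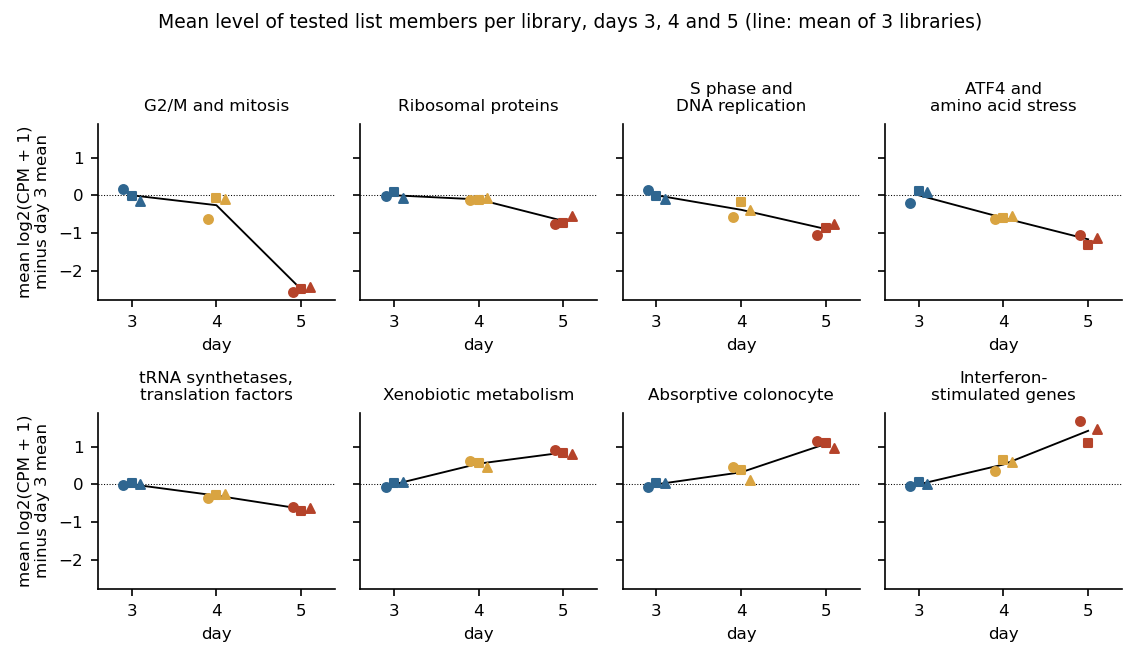
Mean log2(CPM + 1) of the tested members of 8 lists in each library, less the mean of the day 3 libraries, at days 3, 4 and 5 (blue, yellow, red; circles, squares and triangles for replicates 1, 2 and 3), with a line through the means of 3 libraries. Mitosis lies between -0.62 and -0.06 at day 4 and between -2.57 and -2.43 at day 5, while the ATF4 response lies between -0.64 and -0.55 at day 4 and between -1.31 and -1.06 at day 5.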

How the data were processed

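RNA was extracted with the RNAqueous Micro kit per the labels' protocols. The raw counts per gene were deposited by the authors, 1 file per library with 23420 gene symbols and 5 summary lines, which were removed; per the submitters' processing notes they come from CASAVA 1.9, TopHat2 and HTSeq, with mm9 and mm10 both named and no role given. The sources used here give no strand setting, annotation or further tool version, so overlapping and antisense genes cannot be told apart. Of all reads, 43.0 ± 0.397% were counted in genes at day 5 and 42.3 ± 0.458% at day 3, and 41.5 ± 1.14% and 39.7 ± 0.788% overlapped no gene (SD, n = 3 each).

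The 6 libraries were fitted alone in edgeR 4.0.16 (R 4.3.3): filterByExpr with a minimum count of 10, TMM scaling, the quasi-likelihood test, and Benjamini-Hochberg adjustment over all 11910 genes tested, called at 0.05. Genes near the floor on either day passed the filter through the other day alone, and could be tested only as higher there. Standard errors are the log2 fold change divided by the root of the F statistic. The code was tested on simulated data. By a chi-square over gene counts, every pair of libraries of a day differed by more than sampling noise. Day 4 libraries were scaled in the same way, for levels only. A floor of 3 counts corresponds to 0.210 to 0.550 CPM, and intervals and floors cover counting error only.

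Which libraries are members follows from their titles, but the choice of this comparison, the 58 gene lists and the tests was made with earlier results of these data known. Named genes are the 12 largest changes each way among called genes with a mean of at least 5 CPM and no overlap, unnamed models and small RNAs passed over, up to 4 called members per list averaging 1 CPM or more, and genes fixed whatever their value. Abcb1a, Abcg2, Acta2, Ahr, Atf4, Atp1b1, Ccne1, Cks2, Duox2, E2f1, Egfr, Erbb2, Erbb3, Irf7, Kcnn4, Mdm2, Nos2, Pigr, Scnn1a, Slc2a1, Stat2 and Sult1b1 were named after their values were seen, and a few genes are not reported here. RefSeq promoters (GRCm38.p6) matched 9586 of the genes tested by symbol. The 17 alternatives covered scaling, filters, DESeq2 1.42.0, limma 3.58.1 with voom quality weights, fits with the 3 day 4 or all 12 libraries, the replicate number as a block, and leaving out each library.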

Additional observations from a re-analysis of the deposited data

How the results depend on the processing

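The numbers of genes called higher and lower at day 5 were within 1.5 times the 1503 and 1493 given above under all scaling, filter, tool and sample alternatives, at 1252 to 1926 higher and 1290 to 1919 lower, except where single libraries were left out. There they ranged from 978 to 1777 higher and from 966 to 1963 lower: 988 were higher without day 3 replicate 1, and 978 higher and 966 lower without day 3 replicate 2. No gene called in the fit of 6 libraries was called the other way in any of the 17 alternatives. Of 162 called genes named with a value, 151 were called in every alternative that tested them. Apart from single libraries left out, calls were lost for Agr2 and Mcm5 with DESeq2, for B2m, Cldn23 and Cxcl1 in the fit of all 12 libraries, for Gcg with voom quality weights, for Acta2, Cxcl1, Gcg and Psmb9 with the block, for Acta2 with all genes of at least 1 count, and for Psmb9 with library totals and upper quartile scaling. Of genes not called, Car2 and Ocln were called with DESeq2, Ocln also without day 5 replicate 3, Car2 and Cldn3 with voom quality weights and Guca2a in the fit of all 12 libraries. Under the replicate number as a block, 1252 genes were called higher and 1290 lower. Deviations of same-numbered libraries from their day means hardly correlated (r = -0.006, -0.024 and 0.012). With 3 libraries a day, these values cannot show whether same-numbered libraries share a source.

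Of the named genes, those whose sign reversed were not called in the fit of 6 libraries. Cdx2 was at -0.030 with library totals and with upper quartile scaling, -0.0021 with RLE factors, -0.021 with all genes, -0.0051 with the filter at 5 CPM and with DESeq2, -0.0083 and -0.0060 in the fits of 9 and 12 libraries, -0.027 with the block, and -0.14 to 0.17 without single libraries. Mdm2 was at -0.0090 with library totals and -0.014 to 0.077 without single libraries. Without single libraries Cldn8 ranged from -0.41 to 0.13, Gapdh from -0.13 to 0.14 and Ly6a from -0.025 to 0.17. Muc2 was called higher with all genes of at least 1 count (0.76, adjusted p = 0.00765 with edgeR). It was at -0.88 with voom quality weights, where it was called lower, and at -1.12 to 1.29 without single libraries, the lowest being without day 5 replicate 1, where it was also called lower.

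Depth limits the rare transcripts: with 5456913 to 14290393 gene counts a library, secretory and surface markers such as Gcg, Car4 and Aqp8 rest on few reads. Reads without a unique alignment were not counted, and transcript length and the Malat1 share move with day.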
